A study of Homo sapiens with 24 samples.

Results

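Transcripts of 9 collagen chain genes were followed through 24 arrays of A2780, a line of human ovarian cancer cells. The genes were given as a list of names (COL1A1, COL1A2, COL3A1, COL4A1, COL4A2, COL5A1, COL5A2, COL6A1 and COL6A3), out of 11940 genes with a single symbol on the array. Each gene was read by its probe set of highest mean over all 24 arrays, and its other probe sets are given beside it. The 9 genes had 27 of the 22406 probe sets that were not controls: 8 for COL6A1, 4 for COL1A1, 3 each for COL3A1 and COL5A1, 2 each for COL1A2, COL4A1, COL4A2 and COL5A2, and 1 for COL6A3. All 9 were measured and none was filtered out.

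Collagens are secreted proteins in which chains wind into a triple helix and assemble into fibrils, sheets or beaded filaments outside the cell. Types I and III form the fibrils of connective tissue and are made mainly by fibroblasts, type V sits inside those fibrils and limits their width, type IV forms the network of basement membranes on which epithelia rest, and type VI forms fine filaments beside that network. TGF beta is a secreted growth factor known for raising matrix gene transcription through SMAD proteins, and ovarian carcinoma cells can make matrix of their own besides what the stroma supplies.

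RNA was read on Affymetrix expression arrays, and the deposited values are log2 signals. Cells carried a Rab25 expression construct (12 arrays) or the empty vector pcDNA (12 arrays), and Rab25 is a small GTPase of endosome recycling. Before treatment, cells of both lines were kept without serum for 8 h, after culture in the same medium. Each line had 2 arrays with TGF beta (5 ng/ml), 2 with IGF (10 ng/ml), 2 with EGF (10 ng/ml), 2 with fetal bovine serum (FBS, 5%) and 4 of starved cells, split evenly between experiment 2 and experiment 1. Exposure lasted 24 h in experiment 2 and 8 h in experiment 1 by the protocol, but 24 h in both by the sample sources, so experiment and exposure cannot be told apart. Each line is a single transfected line, and the labels do not say that arrays of a group came from separate cultures, so p-values measure the spread between these samples, which may be technical.

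RAB25 itself, read first as a check of the labels, ran from 8.18 to 9.08 on the 12 Rab25 arrays and from 4.90 to 5.60 on the 12 pcDNA arrays, with no overlap. Array medians ran from 6.92 to 7.23. Of 12 markers of ovarian carcinoma, PAX8, KRT7, KRT8, KRT18 and FOLR1 had signals above 10 on all 22 arrays without the Rab25 FBS arrays, whereas MUC16, EPCAM, KRT19 and EMX2 stayed below 5.5. The mean of 5 liver genes, read as a mark of low signal, was 5.28 to 5.50 on those arrays. The 2 Rab25 FBS arrays stood apart from the other 22, with COL3A1 at 11.0 and 12.8 where the others reached at most 6.60. They are described on their own at the end, and every comparison before that was made without them. Among the remaining arrays, 1 starved pcDNA array of experiment 1 (replicate 1-1) stood above its group for COL3A1, at 6.60, where the other 3 had 5.13, 5.26 and 5.28.

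**Figure D1:**
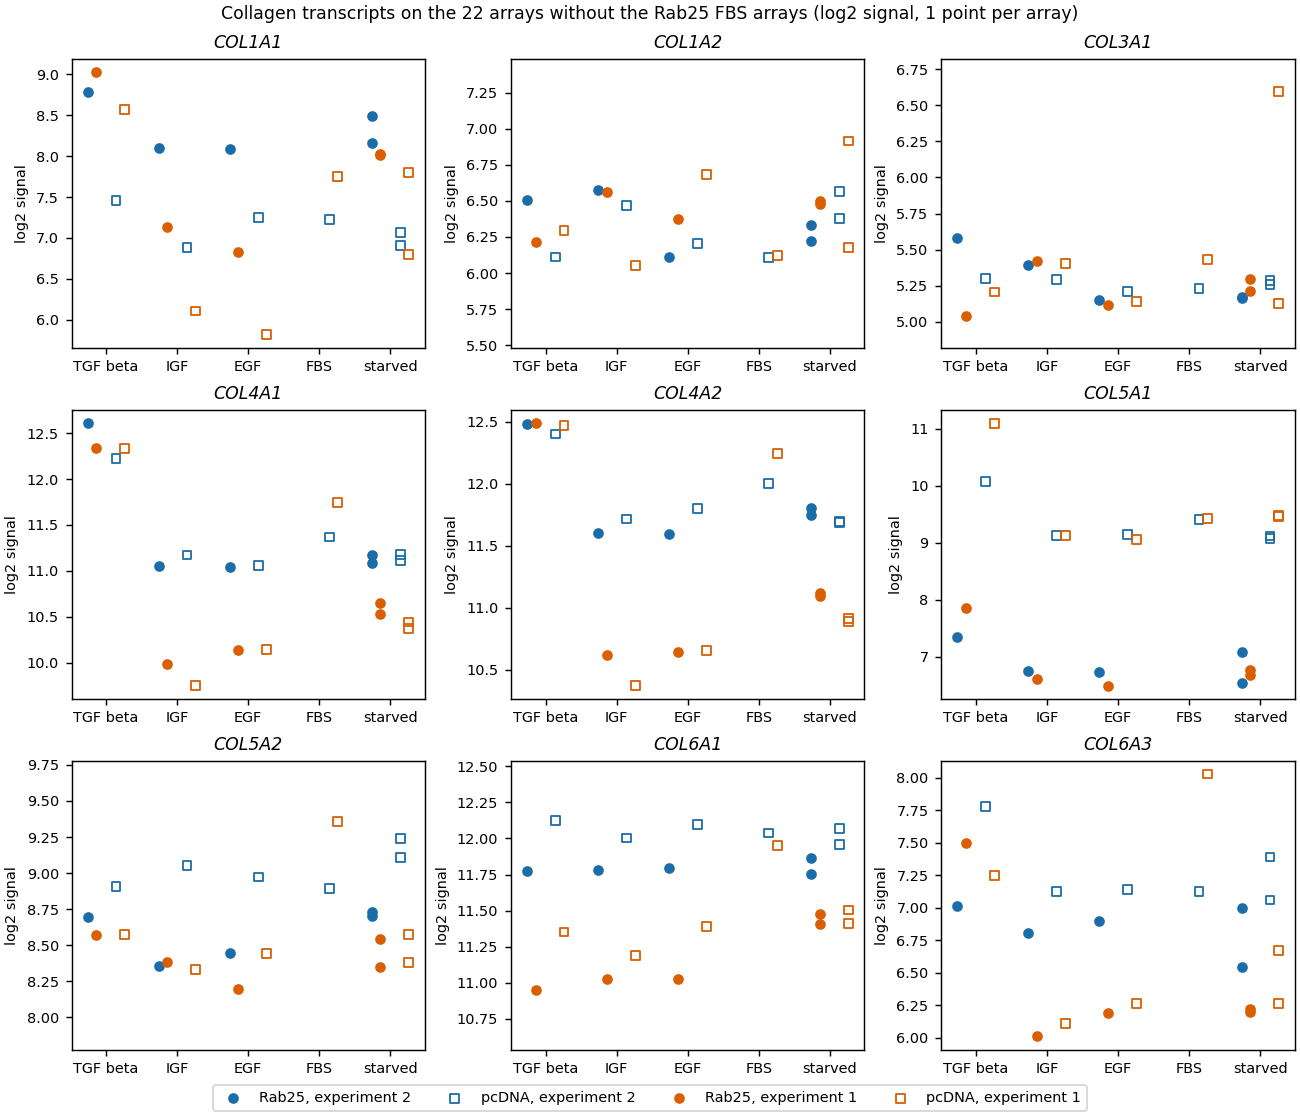
Log2 signal (vertical axis, 1 panel per gene, scales differ) of the 9 collagen genes on 22 arrays, grouped by treatment, with filled circles for Rab25 cells, open squares for pcDNA cells, blue for experiment 2 and orange for experiment 1. COL4A1 and COL4A2 are highest on the TGF beta arrays, COL5A1 separates the lines without overlap, and COL3A1 stays below 5.6 on 21 of the 22 arrays, with 1 starved pcDNA array at 6.60.

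The type IV genes lie head to head on chromosome 13 (GRCh38.p14): COL4A1 runs from 110148963 to 110307157 on the minus strand, COL4A2 from 110307284 to 110513209 on the plus strand, and 126 bases lie between their starts. The first window below is shown because both type IV genes start in it, and the second because COL5A1 separated the lines. Both are printed 5′ to 3′ from RefSeq (GRCh38.p14), from 250 bases before to 50 after the gene's start. Capitals in the COL4A2 window (chr13:110307034-110307333, plus strand) mark the 126 bases between the starts, and capitals in the COL5A1 window (chr9:134641553-134641852, plus strand) mark its 2 GC boxes.
COL4A2: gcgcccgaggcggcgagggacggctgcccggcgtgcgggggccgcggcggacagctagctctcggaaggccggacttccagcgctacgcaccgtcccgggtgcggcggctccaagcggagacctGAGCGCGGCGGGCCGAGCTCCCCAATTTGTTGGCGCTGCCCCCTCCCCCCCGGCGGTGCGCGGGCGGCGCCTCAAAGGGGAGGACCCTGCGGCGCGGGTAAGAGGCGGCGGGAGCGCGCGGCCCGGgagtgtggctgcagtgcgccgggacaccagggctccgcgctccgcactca
COL5A1: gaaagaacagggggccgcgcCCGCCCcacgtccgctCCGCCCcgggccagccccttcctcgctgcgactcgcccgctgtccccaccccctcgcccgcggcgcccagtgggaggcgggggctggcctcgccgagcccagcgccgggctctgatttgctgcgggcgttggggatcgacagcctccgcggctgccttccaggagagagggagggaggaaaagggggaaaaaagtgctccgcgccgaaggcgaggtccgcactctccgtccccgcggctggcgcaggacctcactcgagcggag
Both windows were rich in G and C, 77.7% for COL4A2 and 74% for COL5A1, and a window was also given for COL4A1 (76.7%) and COL6A3 (56.3%), that is for 4 of the 9 genes. COL1A1, COL1A2, COL3A1, COL5A2 and COL6A1 are named only. Letters were searched on both strands: GTCT, the core letters of SMAD binding, CAGACA, a longer SMAD element that always holds the core on its other strand, GGGCGG, the GC box, and the CCAAT and TATAAA boxes. GTCT occurred in 84% of the 34796 RefSeq windows, CAGACA in 16.9%, GGGCGG in 44.9%, CCAAT in 34.6% and TATAAA in 11.6%. The COL4A2 window held 1 GTCT, 1 GGGCGG and 1 CCAAT, and the COL4A1 window, which overlaps it, 1, 2 and 1. The COL5A1 window held 2 GGGCGG and no other of these letters, and the COL6A3 window held 3 GTCT. COL3A1 (188974373 to 189012746) and COL5A2 (189031898 to 189441111) are also neighbours, on chromosome 2, with 19151 bases between them.

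The comparison of the lines asked which collagen transcripts differed in cells that express Rab25, over TGF beta, IGF, EGF and starved cells. COL5A1 was 6.13-fold lower in Rab25 cells, COL1A1 was 1.99-fold higher by 1 of its 4 probe sets, and COL6A1 was slightly lower by 1 of its 8. These 3 of the 9 genes passed limma's test at an adjusted p of 0.05, in a fit of 22 arrays in which 24.7% of all genes passed, so the share of the collagens stood near that of all genes. The median log2 difference was -0.07 over the 9 collagens and -0.01 over all genes.

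COL5A1 encodes the main chain of type V collagen, which starts and thins type I fibrils. On the 10 Rab25 arrays of these conditions its lowest, median and highest signals were 6.49, 6.74 and 7.85 (mean 6.88 ± 0.43, SD, n = 10), and on the 10 pcDNA arrays 9.07, 9.14 and 11.10 (mean 9.48 ± 0.65, SD, n = 10). The highest Rab25 array lay below the lowest pcDNA array. The log2 difference was -2.62 (SE 0.11, 95% interval -2.85 to -2.38, limma adjusted p = 1.37e-10), and it ran from -3.25 to -2.29 in the 8 matched pairs of condition and experiment. The other probe sets gave -1.72 (SE 0.07) and -1.67 (SE 0.12), and both passed. In starved cells alone, where 18% of all genes passed, COL5A1 was again lower, at -2.52 (SE 0.17, limma adjusted p = 1.16e-07), and it was the only collagen of the 9 to pass there.

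COL1A1 encodes the main chain of type I collagen, the most abundant fibril collagen. Its Rab25 signals were 6.83, 8.09 and 9.02 at the lowest, median and highest array, against 5.82, 6.99 and 8.57 in pcDNA cells. The ranges overlapped, but within matched condition and experiment the Rab25 cells were higher in 8 of 8 pairs, by 0.46 to 1.34. The log2 difference was 0.99 (SE 0.23, 95% interval 0.50 to 1.48, limma adjusted p = 0.00459). It rests on the probe set of highest mean, since the other 3 gave 0.02, -0.05 and 0.08 and the median of the 4 probe sets gave 0.06 (limma adjusted p = 0.554). Those 3 had weaker signals, with means over the 22 arrays of 6.55, 5.78 and 5.08, beside 7.56 for the probe set used. Their lack of difference is therefore limited evidence. In starved cells COL1A1 differed by 1.03 (SE 0.35), and the limma adjusted p was 0.0520, although COL1A1 passed when any of 9 arrays was left out. COL1A2, the partner chain of type I collagen, differed by 0.03 (SE 0.10), with an interval from -0.17 to 0.24. That interval lies wholly below the interval of COL1A1, although the difference between the chains was not itself tested. COL1A2 also had weak signals, with means over the 22 arrays of 6.36 and 5.64 by its probe sets. Its lack of difference is therefore limited evidence too.

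COL6A1, a chain of the type VI filaments, had Rab25 signals of 10.95, 11.61 and 11.87 at the lowest, median and highest array, against 11.19, 11.73 and 12.13 in pcDNA cells. The ranges overlapped, and Rab25 cells were lower in 8 of 8 matched pairs, by 0.02 to 0.40. The log2 difference was -0.25 (SE 0.07, 95% interval -0.40 to -0.11, limma adjusted p = 0.0128). The call rests on the probe set of highest mean and on the experiment term: the other 7 probe sets gave -0.13 to 0.11 and none passed, and without the experiment term the adjusted p was 0.436. Those 7 had weaker signals, which limits what they can show. Over the 22 arrays the strongest had a mean of 8.19 and the next 6.17, beside 11.63 for the probe set used. The strongest of them had means of 8.08 in Rab25 and 8.22 in pcDNA cells.

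COL5A2, the second chain of type V collagen, was at -0.26 (SE 0.10, limma adjusted p = 0.0684) by its probe set of highest mean and at -0.33 (SE 0.06, adjusted p = 6.07e-04) by the other, and it was lower in Rab25 cells in 7 of 8 matched pairs. The type IV genes did not pass, at 0.08 (95% interval -0.21 to 0.38) for COL4A1 and 0.04 (-0.26 to 0.33) for COL4A2. COL3A1 was at -0.07 and COL6A3, the longest chain of type VI, at -0.25 (SE 0.17), and neither passed. As a sign of RNA quality, actin control probe sets at the 3′ end less those at the 5′ end had a median of 0.77 (0.66 to 1.07) on the Rab25 arrays and 0.89 (0.67 to 1.17) on the pcDNA arrays, and its part in these differences was not tested.

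**Figure D2:**
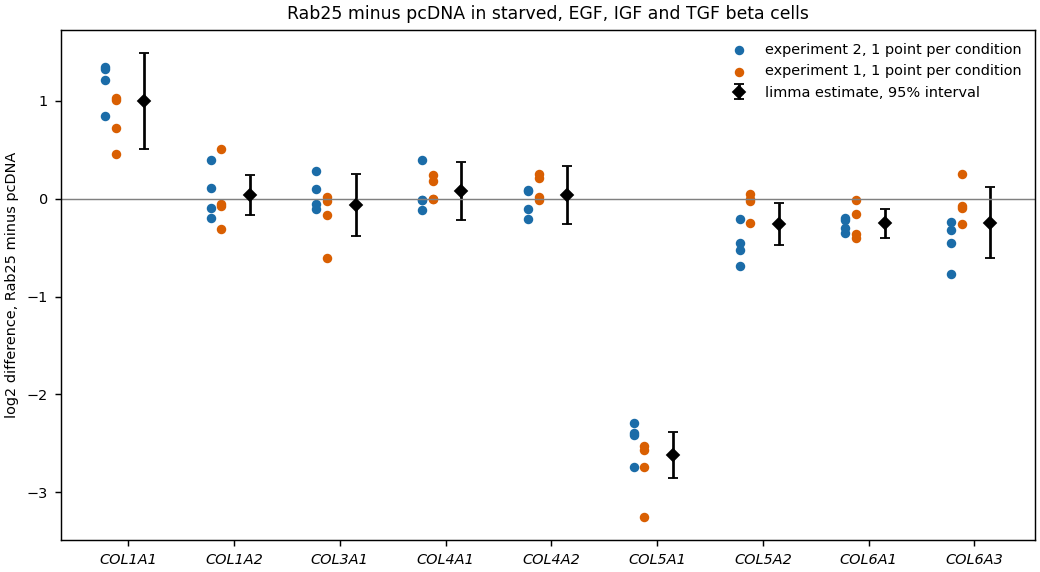
Log2 difference, Rab25 minus pcDNA (vertical axis), for each of the 9 collagen genes, with 1 point per matched condition in experiment 2 (blue) and in experiment 1 (orange) and the limma estimate with its 95% interval (black diamond). COL5A1 lies between -3.25 and -2.29 in all 8 pairs, COL1A1 lies above 0 in all 8, and the type IV genes scatter around 0.

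Other genes of collagen biology were read against the same 24.7% of all genes that passed between the lines. Of 23 further collagen chains measured, 2 were higher and 3 lower in Rab25 cells, among them COL13A1, a transmembrane collagen, at -0.999 (SE 0.09), COL16A1 at -0.27, COL4A5, a further type IV chain, at -0.16, and COL9A3 at 0.44. Of 17 genes for chain modification and folding, 2 were higher and 4 lower: the glycosyltransferase COLGALT1 fell by 0.45, the prolyl hydroxylase P3H2 by 0.64 and the lysyl hydroxylases PLOD2 by 0.19 and PLOD1 by 0.24 on the log2 scale. Of 13 genes for procollagen processing and crosslinking, 2 were higher and 1 lower, with BMP1, the procollagen C-proteinase, at -0.29 and the crosslinking enzyme LOXL1 at 0.55.

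Of 13 basement membrane partners, 3 were higher and 1 lower, the 3 being the laminin chains LAMC1 at 0.70 (SE 0.09) and LAMA4 at 0.44 and the proteoglycan AGRN at 0.37. Of 19 fibril partners, 3 were higher and 5 lower, with fibronectin (FN1) at 0.53, tenascin C (TNC) at 0.63, fibulin 1 (FBLN1) at -1.12 (SE 0.11) and the microfibril protein MFAP2 at -0.53. Of 8 collagen receptors, 1 was higher and 3 lower: the collagen uptake receptor MRC2 was at -0.88, the integrin ITGA2 at -0.48, DDR2, a tyrosine kinase receptor for fibrillar collagen, at -0.60 and DDR1 at 0.23. Of 14 collagen cleaving enzymes and inhibitors, none was higher and 4 were lower, namely MMP9 at -0.93, the membrane collagenase MMP14 at -0.67, and the inhibitors TIMP3 at -0.69 and TIMP4 at -0.33. The list medians stood between -0.09 and 0.07, beside -0.01 for all genes.

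The comparison of TGF beta with starved cells asked for the response to that factor. COL4A1 rose 2.94-fold, COL4A2 2.13-fold and COL5A1 2.10-fold over both lines. These 3 of the 9 collagens passed, all upward, where 1.99% of all genes passed, and every probe set of these 3 genes passed too. The median log2 difference was 0.72 over the 9 collagens and -0.02 over all genes. The growth factor and FBS comparisons share the starved arrays, so their values are not independent of each other.

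COL4A1, which encodes the alpha 1 chain of the basement membrane network, had signals of 12.61 and 12.33 with TGF beta in Rab25 cells of experiments 2 and 1 and of 12.22 and 12.33 in pcDNA cells. Starved Rab25 cells had 11.08 and 11.18 in experiment 2 and 10.53 and 10.65 in experiment 1, and starved pcDNA cells 11.18 and 11.11 in experiment 2 and 10.44 and 10.37 in experiment 1. All 4 TGF beta arrays lay above every starved array. The log2 difference was 1.56 (SE 0.18, 95% interval 1.17 to 1.94, limma adjusted p = 1.44e-04), and the other probe set gave 1.54 (SE 0.21).

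COL4A2, the alpha 2 chain that joins COL4A1 in the same triple helix, reached nearly the same level on all 4 TGF beta arrays: 12.48 and 12.49 in Rab25 cells of experiments 2 and 1, and 12.40 and 12.47 in pcDNA cells. Starved cells lay at 11.68 to 11.81 in experiment 2 and at 10.89 to 11.12 in experiment 1. The TGF beta arrays were again above every starved array. The log2 difference was 1.09 (SE 0.18, 95% interval 0.70 to 1.48, limma adjusted p = 0.00404), and 1.23 (SE 0.22) by the other probe set. The call was lost without the experiment term (adjusted p = 0.201).

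COL5A1 had 7.35 and 7.85 with TGF beta in Rab25 cells of experiments 2 and 1, against 6.53 and 7.08 in starved Rab25 cells of experiment 2 and 6.77 and 6.67 in those of experiment 1. In pcDNA cells it had 10.08 and 11.10 with TGF beta, against 9.12 and 9.08 in starved cells of experiment 2 and 9.48 and 9.46 in those of experiment 1. By this probe set the TGF beta arrays of each line lay above all 4 starved arrays. The Rab25 cells with TGF beta stayed below the starved pcDNA cells. By another of its probe sets the lowest TGF beta array, a Rab25 array, had 6.11, below the lowest starved array, at 6.15. The log2 difference over both lines was 1.07 (SE 0.15, 95% interval 0.76 to 1.38, limma adjusted p = 6.61e-04), and the other probe sets gave 0.40 and 0.71.

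COL6A3 and COL1A1 did not pass, at 0.72 (SE 0.22, limma adjusted p = 0.143) and 0.80 (SE 0.30, limma adjusted p = 0.262), although each was above its starved cells in 4 of 4 matched pairs of line and experiment. COL6A3 passed when either pcDNA FBS array was left out (adjusted p = 0.0225). COL6A1 was at -0.13, COL5A2, the type V partner of COL5A1, at -0.02 (95% interval -0.30 to 0.26), COL1A2 at -0.16 and COL3A1 at -0.11. Both type IV chains thus passed, and of the type V chains COL5A1 did and COL5A2 did not, though the difference between chains was not itself tested.

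TGF beta responses were also read in each line. In Rab25 cells, where 0.712% of all genes passed, COL4A1 rose by 1.61 (SE 0.26, limma adjusted p = 0.00580), and COL4A2 and COL5A1 were at 1.04 and 0.84 with adjusted p = 0.0878 and 0.0882. Among the alternatives tried, COL5A1 in Rab25 cells was as low as 0.11. In pcDNA cells, where 0.343% passed, COL4A1 rose by 1.5 (SE 0.26, adjusted p = 0.0142) and COL5A1 by 1.31 (SE 0.21, adjusted p = 0.00801), and COL4A2 was at 1.14 (adjusted p = 0.0818). The test of the difference between the lines passed for none of the 9 collagens in limma (0 also at an unadjusted p under 0.05) and for 0% of all genes, 742 of which had an unadjusted p under 0.05. That difference was 0.11 for COL4A1, with a 95% interval from -0.66 to 0.89, and -0.47 for COL5A1 (-1.10 to 0.15), so responses that differ by that much lie within the intervals. The calls within a line rest on few arrays. In Rab25 cells the COL4A1 call was lost without the TGF beta array of experiment 1 (adjusted p = 0.0801). In pcDNA cells it was lost without the TGF beta array of experiment 1 (adjusted p = 0.245) or starved replicate 1-2 (0.0508), and the COL5A1 call without that TGF beta array (adjusted p = 0.164).

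Of 9 measured genes known to respond to TGF beta, 6 rose and none fell, where 1.99% of all genes passed. PMEPA1, a feedback inhibitor of SMAD signalling, was at 2.07, NEDD9 at 2.38, TGFBI at 1.29 and LTBP2 at 0.64. The list median was 0.64 beside -0.02 for all genes. This list was chosen with earlier results of these data known, so its rise is not an independent check. The lists that follow are read against the same 1.99% of all genes. Of 13 basement membrane partners, only the laminin chain LAMB1 rose, at 0.54 (SE 0.13), and none fell. Of 19 fibril partners, MFAP2 rose by 1.05 and TGFBI, a collagen-binding protein also among the responders, by 1.29. Of 14 collagen cleaving enzymes and inhibitors, FAP, a membrane protease, rose by 1.92 (SE 0.20) and the collagen-degrading cathepsin CTSK fell by 0.30. None passed among the 23 further collagen chains, the 17 modification and folding genes, the 13 processing and crosslinking genes and the 8 receptors. At the share of all genes, lists of such size would hold few calls or none, so these low counts do not set the lists apart. The mean signal of 13 fibroblast and stromal markers, which include FAP, was 7.72 to 7.90 on the 4 TGF beta arrays and 7.46 to 7.62 on the 8 starved arrays. Single markers of that list differed widely in level on the 22 arrays. LUM stayed at 4.54 to 4.85, whereas DCN had 11.55 to 12.55, PDPN 11.29 to 13.10 and ACTA2 10.21 to 11.34. The other markers lay between 5.10 (C1R) and 10.25 (FAP). The part of that list in the collagen responses was not tested.

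The size of the TGF beta response was compared between the experiments in a fit with treatment by experiment terms, since 1 label field gives the experiments different exposures. In experiment 2, where 3.33% of all genes passed, COL4A1 rose by 1.28 (SE 0.10), COL4A2 by 0.71 (SE 0.08) and COL5A1 by 0.76 (SE 0.15). In experiment 1, where 1.38% passed, COL4A1 rose by 1.84 (SE 0.10), COL4A2 by 1.47 (SE 0.08), COL5A1 by 1.38 (SE 0.15) and COL6A3 by 1.03 (SE 0.19). The difference between the experiments itself passed for COL4A2 alone, at -0.76 (SE 0.11, 95% interval -0.995 to -0.533, limma adjusted p = 0.00616), that is a smaller rise in experiment 2, in a test that 0.402% of all genes passed. It was lost without either Rab25 TGF beta array (adjusted p = 0.0993 for each). COL4A1 was at -0.56, COL5A1 at -0.62 and COL6A3 at -0.63, with adjusted p = 0.128, 0.388 and 0.544. For COL4A2 the levels with TGF beta were 12.40 to 12.49 in both experiments, and the starved levels were higher in experiment 2.

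**Figure D3:**
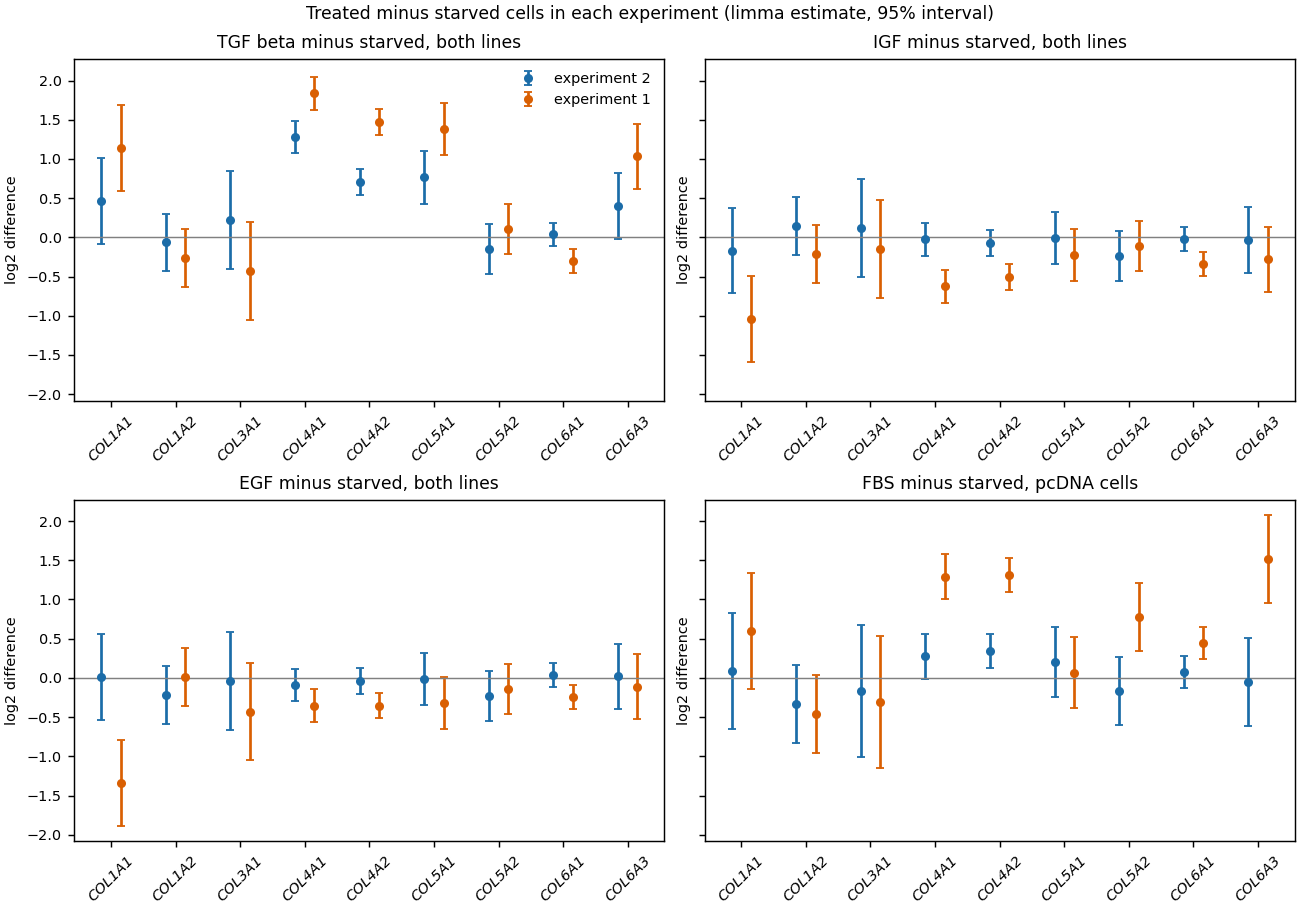
Log2 difference of treated minus starved cells (vertical axis, limma estimate with 95% interval) for the 9 collagen genes in experiment 2 (blue) and experiment 1 (orange), for TGF beta, IGF and EGF over both lines and for FBS in pcDNA cells. COL4A1 and COL4A2 lie above 0 with TGF beta in both experiments, and with FBS the rises of COL4A1 (1.29), COL4A2 (1.31) and COL6A3 (1.51) passed only in experiment 1.

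IGF and EGF were compared with starved cells in the same way. With IGF none of the 9 collagens passed in limma, 0 had an unadjusted p under 0.05, and 4.31% of all genes passed. COL1A1 was at -0.60 (95% interval -1.24 to 0.04) and COL4A1 at -0.33 (-0.71 to 0.06). With EGF none of the 9 passed and 1, COL1A1 at -0.66 (SE 0.30, limma adjusted p = 0.594), had an unadjusted p under 0.05. For EGF 0% of all genes passed, while 981 had an unadjusted p under 0.05.

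The experiments differed for IGF. In experiment 1, where 11.3% of all genes passed, COL4A1 fell by 0.63 (SE 0.10, limma adjusted p = 0.00162), COL4A2 by 0.51 (SE 0.08, adjusted p = 0.00135), COL6A1 by 0.34 (SE 0.07, adjusted p = 0.00817) and COL1A1 by 1.04 (SE 0.25, adjusted p = 0.0198), the last not in a fit of experiment 1 alone (adjusted p = 0.0648). Of their probe sets, 2 of the 8 of COL6A1 and 1 of the 4 of COL1A1 passed, and over both experiments the median of the COL6A1 probe sets stood at 0.11 where the probe set of highest mean had -0.18. COL4A1 stood at 9.99 in the Rab25 cells and 9.75 in the pcDNA cells with IGF in experiment 1, below all 4 starved arrays of that experiment (10.37 to 10.65). In experiment 2, where 2.78% of all genes passed, none of the 9 passed, 0 had an unadjusted p under 0.05, and COL4A1 was at -0.03 (95% interval -0.23 to 0.18). The difference between the experiments passed for COL4A1 only, at 0.60 (SE 0.13, limma adjusted p = 0.0462) beside 1.83% of all genes, and it was lost when any of 15 of the 22 arrays was left out (adjusted p up to 0.310). That test, like the same test for EGF, was added after the data were seen.

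With IGF in experiment 1, where 11.3% of all genes passed, 7 of 13 basement membrane partners fell and none rose, among them LAMB1 at -0.55, the peroxidase PXDN, which crosslinks type IV collagen, at -0.43, LAMA5 at -0.74 and LAMA4 at -0.52, with a list median of -0.34 beside -0.0028 for all genes. Of the 9 TGF beta responders 5 also fell and none rose, with a median of -0.46. Fibril partners had 0 higher and 4 lower of 19, further collagen chains 0 and 3 of 23, receptors 1 and 3 of 8, cleaving enzymes and inhibitors 1 and 3 of 14, modification and folding genes 2 and 1 of 17, and processing and crosslinking genes 1 and 0 of 13. In experiment 2 none of the 13 basement membrane partners passed. For EGF none of the 9 collagens passed in experiment 2 (0.972% of all genes passed and 0 collagens had an unadjusted p under 0.05), in experiment 1 (0.251% of all genes, 4 collagens at an unadjusted p under 0.05) or in the difference between the experiments (0.126% of all genes, 3 collagens). COL1A1 in experiment 1 was at -1.34 (SE 0.25, limma adjusted p = 0.0612), with 6.83 with EGF in Rab25 cells, against 8.02 on both starved arrays, and 5.82 with EGF in pcDNA cells, against 7.80 and 6.80.

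FBS was compared with starved cells in the pcDNA line. Over both experiments none of the 9 collagens passed in limma, 4 had an unadjusted p under 0.05, and 10.4% of all genes passed. COL4A2 was at 0.83 (SE 0.26, adjusted p = 0.0510), COL4A1 at 0.78 (adjusted p = 0.0639) and COL6A3 at 0.73 (adjusted p = 0.148). The count moved when any of 7 arrays was left out: it was 5 without the pcDNA FBS array of experiment 2, 2 without either pcDNA IGF array and 1 when either TGF beta array of either line was left out.

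In experiment 1 alone, where 26.5% of all genes passed, 5 of the 9 rose: COL6A3 by 1.51 (SE 0.26), COL4A2 by 1.31 (SE 0.10), COL4A1 by 1.29 (SE 0.13), COL5A2 by 0.78 (SE 0.20) and COL6A1 by 0.45 (SE 0.09). COL6A3 had 8.03 with FBS in experiment 1, against 6.67 and 6.26 in starved pcDNA cells of that experiment. COL4A1 had 11.75 with FBS, against 10.44 and 10.37 in the starved cells. In experiment 2, where 3.93% of all genes passed, none of the 9 passed and 1, COL4A2 at 0.34 (SE 0.10, limma adjusted p = 0.0928), had an unadjusted p under 0.05, and COL6A3 had 7.13 with FBS, within the 7.39 and 7.06 of its starved cells. The difference between the experiments passed for 4 of the 9, in a test added after the data were seen that 12.8% of all genes passed: COL6A3 at -1.56 (SE 0.35, limma adjusted p = 0.0119), COL4A1 at -1.02 (SE 0.17, adjusted p = 0.00261), COL4A2 at -0.97 (SE 0.14, adjusted p = 8.04e-04) and COL5A2 at -0.95 (SE 0.27, adjusted p = 0.0368). The COL5A2 call was lost without any of 5 of the 20 arrays left out in turn (adjusted p up to 0.0629). FBS is 1 array in each experiment here, so these estimates borrow their spread from the other groups.

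Folding and modification genes moved in both directions with FBS in experiment 1, 8 of 17 higher and 7 lower, where 26.5% of all genes passed. SERPINH1, the collagen chaperone of the endoplasmic reticulum, fell by 1.62 and the prolyl hydroxylase P4HA1 by 1.00, while P3H2 rose by 0.73. Of the 13 basement membrane partners 7 rose and 1 fell. The 4 of lowest p were LAMC1 at 1.07, LAMA4 at 1.27, LAMB1 at 0.67 and the proteoglycan HSPG2 at 0.86, and NID1, named after its value was seen, rose by 1.83. Fibril partners had 6 higher and 1 lower of 19, cleaving enzymes and inhibitors 5 and 4 of 14, processing and crosslinking genes 4 and 1 of 13, further collagen chains 1 and 2 of 23, receptors 1 and 2 of 8 and TGF beta responders 2 and 2 of 9.

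Starved cells of the experiments were compared directly, since each line had 2 starved arrays in each. In experiment 2, 5 of the 9 collagens were higher and none lower, where 34.4% of all genes passed in either direction. COL4A2 was higher by 0.73 (SE 0.05, limma adjusted p = 1.57e-05), COL4A1 by 0.64 (SE 0.06, adjusted p = 6.48e-05), COL6A3 by 0.66 (SE 0.13, adjusted p = 0.00446), COL5A2 by 0.48 (SE 0.07, adjusted p = 9.10e-04) and COL6A1 by 0.46 (SE 0.06, adjusted p = 3.60e-04). COL4A2 had 11.68 to 11.81 on the 4 starved arrays of experiment 2 and 10.89 to 11.12 on the 4 of experiment 1, without overlap, and COL6A1 had 11.75 to 12.07 and 11.41 to 11.50, also without overlap. The COL6A1 call did not hold with the median of its probe sets, which takes in those of weak signal, at 0.10 (limma adjusted p = 0.20). COL1A1 was at -0.0050 (SE 0.19), COL1A2 at -0.14, COL5A1 at -0.14 and COL3A1 at -0.34, and none of these passed. Without starved pcDNA replicate 1-2, which leaves replicate 1-1 as the only pcDNA array of experiment 1, COL3A1 was at -0.71 (adjusted p = 1.92e-04) and COL1A2 at -0.33 (adjusted p = 0.0111). The median log2 difference was 0.46 over the collagens and 0.0066 over all genes. The labels give starved cells no exposure time and the same 8 h without serum in both experiments. What else was done apart in the experiments cannot be told from them. The actin 3′ minus 5′ signal was 0.68 to 0.93 in experiment 2 and 0.76 to 1.17 in experiment 1, and its part was not tested.

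Of the 17 modification and folding genes, 3 were higher and 6 lower in starved cells of experiment 2, where 34.4% of all genes passed: SERPINH1 at -0.84 (SE 0.05), P4HA2 at -0.82, the prolyl isomerase PPIB at -0.48, and P3H2 in the other direction at 0.62. Of 13 processing and crosslinking genes 6 were higher and 1 lower, with the crosslinking enzymes LOXL2 at 0.54 and LOXL1 at 0.40 and LOX at -0.66. Of 13 basement membrane partners 4 were higher and 2 lower, with nidogen 1 (NID1), which links laminin to type IV collagen, at 1.20. Of 14 collagen cleaving enzymes and inhibitors 3 were higher and 4 lower, with the interstitial collagenase MMP1 at -2.68 (SE 0.08) and FAP at 1.01. Further collagen chains had 2 higher and 3 lower of 23, fibril partners 4 and 5 of 19, receptors 1 and 3 of 8 and TGF beta responders 3 and 2 of 9.

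Over the 22 arrays COL4A1 and COL4A2 moved together, with a Pearson r of 0.98, the highest of the 36 pairs of collagens. COL6A3 had an r of 0.87 with COL4A2 and 0.82 with COL4A1, and COL5A2 one of 0.76 with COL6A1. The chains of type I, COL1A1 and COL1A2, had an r of -0.04, and those of type V 0.46. Of all other genes the nearest to COL4A1 were FAP and TGFBI (r = 0.98 each), to COL4A2 TGFBI (0.97) and FAP (0.94), to COL5A1 SMPD1 (0.93) and COX17 (0.92), and to COL6A1 TGM2 and SAA1 (0.96 each). COL5A2 was nearest to GGH and NEK2 (0.92 each), COL1A1 to MAGED1 (0.89) and SPOCK1 (0.87), and COL6A3 to ADAM19 and GPR153 (0.88 each). COL1A2 and COL3A1 had no gene above 0.73, the nearest being BFSP2 (0.72) and TBKBP1 (0.70) for COL1A2 and TMEM100 (0.71) and AP4E1 (0.66) for COL3A1. These are descriptions over arrays that share lines, treatments and experiments.

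COL3A1 and COL1A2 varied little on these arrays, and COL3A1 was at the level read above as low signal. Its mean over the 22 arrays was 5.32, and 5.11 and 5.03 by its other probe sets, beside 5.28 to 5.50 for the mean of the liver genes. COL1A2 had a mean of 6.36, and 5.64 by its other probe set. At the level of COL3A1 a lack of difference, or a correlation, says little about the transcript. The weak signal of COL1A2 likewise limits what its lack of difference and its r with COL1A1 can show. COL3A1, the chain of type III collagen, lay between 5.04 and 5.58 on 21 of the 22 arrays and at 6.60 on starved pcDNA replicate 1-1. COL1A2 lay between 6.05 and 6.91, the highest on the same array, where COL1A1 was also the highest of the 4 starved pcDNA arrays (7.80, against 6.80, 7.07 and 6.90). In the comparisons above with no array left out, neither COL1A2 nor COL3A1 passed, though both did between the starved experiments without pcDNA replicate 1-2. Of 13 fibroblast and stromal markers, 4 were highest of the 4 starved pcDNA arrays on replicate 1-1 and none by more than 0.5. In the other lists it was highest for 6 of 13 immune, 5 of 14 breast epithelium, 3 of 5 blood, 2 of 9 endothelial, 2 of 12 ovarian carcinoma, 1 of 8 adipocyte and 1 of 5 liver genes, none by more than 0.5. The same count over all genes was not made, so these counts have no share of all genes beside them. Its list means for immune (5.91), breast epithelium (6.01) and adipocyte markers (5.68) were the highest of the 8 starved arrays, and its actin 3′ minus 5′ signal (1.17) was the highest of all 24. Its mean for ovarian carcinoma markers (8.55) was the lowest of the 8 starved arrays, and its means for the remaining lists lay inside the range of those arrays. LUM stood at 4.85 on replicate 1-1 where the other 3 reached 4.75. The part of these values in the COL3A1 signal was not tested.

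The 2 Rab25 FBS arrays were set against starved Rab25 cells in a fit of all 24 arrays. COL3A1 was higher by 6.67 (SE 0.36), COL1A2 by 4.25 (SE 0.35), COL6A3 by 3.22 (SE 0.37), COL1A1 by 2.89 (SE 0.45) and COL5A1 by 1.11 (SE 0.29) on the log2 scale, and these 5 of the 9 passed where 7.72% of all genes did. In bulk RNA, more cells of a type and more RNA per cell cannot be told apart. COL3A1 had 11.0 and 12.8 in experiments 2 and 1, against 5.17 and 5.17 in starved Rab25 cells of experiment 2 and 5.30 and 5.21 in those of experiment 1. COL1A2 had 9.54 and 11.73, against 6.22 to 6.50 in the 4 starved arrays, and COL6A3 had 9.23 and 10.20, against 6.20 to 7.0. For these 3 genes both FBS arrays lay above all other 22 arrays, and the array of experiment 1 was the higher of the pair each time.

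COL1A1 had 10.60 and 11.52, also above all other arrays, and its call was lost with array weights (adjusted p = 0.170). COL5A1 had 7.08 and 8.67, and its call was lost without the FBS array of experiment 1, where the difference was 0.39. It was also lost without any of 3 starved Rab25 arrays (limma adjusted p up to 0.0703). Of the 10 alternatives other than left-out arrays, 5 lost this call as well. The type IV genes and COL6A1 did not pass, at 0.70 for COL4A1 (adjusted p = 0.14), 0.38 for COL4A2 and 0.14 for COL6A1, and both FBS arrays lay inside the range of the other 22 for these 3. COL5A2 had 8.6 and 10.18, above the other arrays in experiment 1 only. The difference between the lines in the response to FBS passed for COL3A1, at 6.91 (SE 0.51, limma adjusted p = 1.54e-06), and COL1A2, at 4.65 (SE 0.50, adjusted p = 1.66e-04), in a test that 0.209% of all genes passed, and it was 2.49 for COL6A3 (adjusted p = 0.0813) and 2.55 for COL1A1 (adjusted p = 0.127). Without the Rab25 FBS array of experiment 2, COL1A1, COL5A1, COL5A2 and COL6A3 also passed in that test.

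Of the 27 probe sets, 7 lay above all other 22 arrays on both Rab25 FBS arrays, from 4 genes, a further 7 on 1 of them and 13 on neither. The same count over all probe sets was not made, so whether 7 of 27 is unusual on these arrays cannot be said. Probe sets of 1 gene disagreed there. For COL3A1, 1 of the 3 probe sets had 4.86 and 4.95, inside the range of the others, and 1 of the 4 of COL1A1 had 5.74 and 5.79, also inside. Among the 23 further chains, COL10A1 had 5.38 and 8.20 and COL11A1 5.40 and 7.16, each above the other arrays in experiment 1 only.

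**Figure D4:**
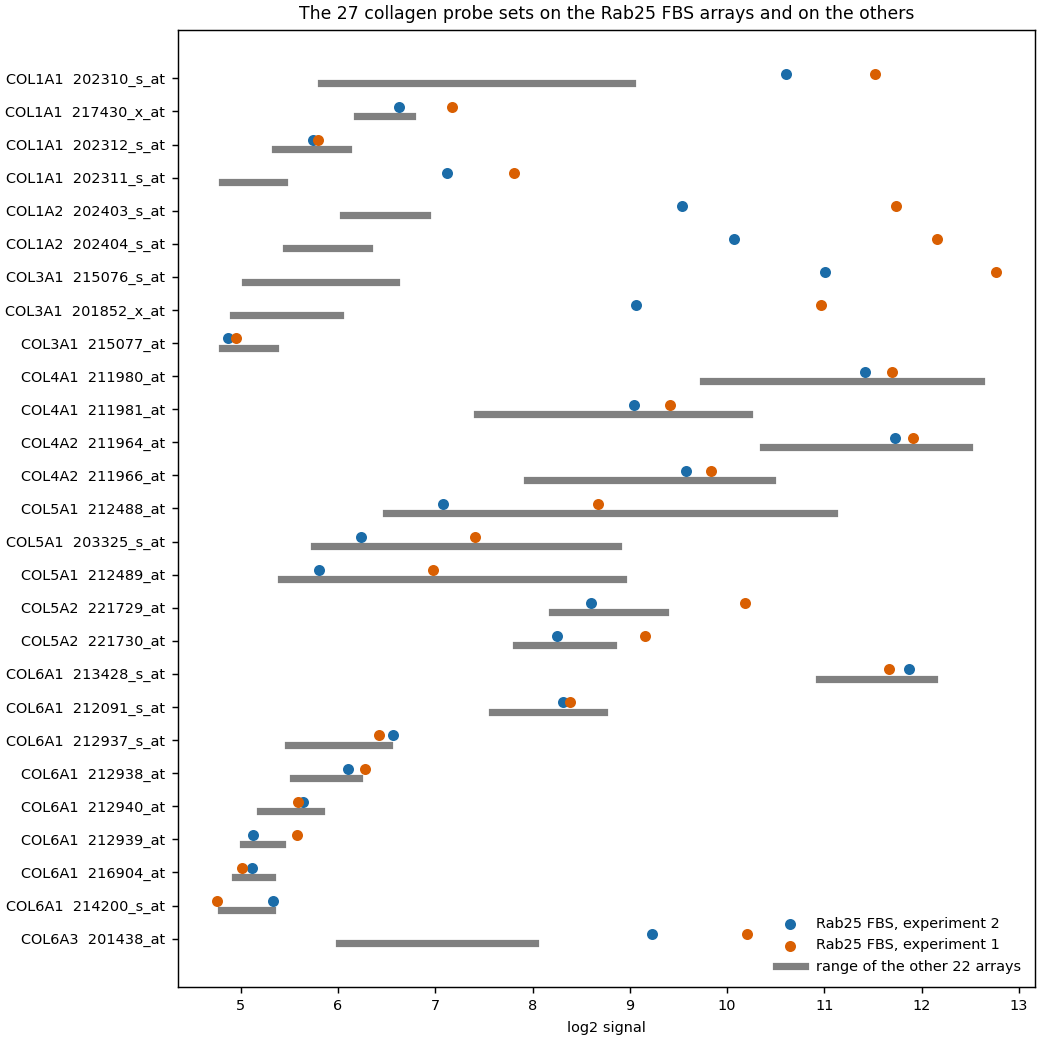
Log2 signal (horizontal axis) of the 27 collagen probe sets, grouped by gene, on the Rab25 FBS arrays of experiment 2 (blue) and experiment 1 (orange), above the range of the other 22 arrays (grey bar). The probe sets of COL1A2, COL6A3 and 2 of 3 of COL3A1 lie to the right of the grey bar on both arrays, and those of COL4A1 and COL4A2 inside it.

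Some markers of other cell types were also high on the Rab25 FBS arrays. How many of all genes lay above the other 22 arrays on both was not counted. The counts below therefore have no share of all genes beside them. Of 13 fibroblast and stromal markers, 2 were above all other 22 arrays on both, LUM, a fibril proteoglycan, at 7.57 and 10.5 in experiments 2 and 1 where the others reached 4.85, and C1R, and the list's mean signal was 7.88 and 8.58, against 7.44 to 7.90 on the other Rab25 arrays and 7.35 to 7.82 on the pcDNA arrays. PDGFRA and DPT stayed inside their range. Of 13 immune markers 7 were above all other arrays on both. CD74 had 7.66 and 9.66 against at most 5.97, but CD68 only 5.64 and 5.55 against at most 5.53. The list's mean was 6.35 and 6.70, against 5.71 to 5.94 on the other Rab25 arrays. Of 14 breast epithelium markers 3 were above on both, with SCGB2A2 at 8.84 and 8.57 against at most 5.90, and the mean was 6.38 and 7.59 against 5.82 to 5.95, while KRT5 and KRT14 stayed below 5.4. Of 8 adipocyte markers 2 were above, with FABP4 at 10.4 and 7.54 against at most 7.17, and the mean was 6.58 and 5.84 against 5.39 to 5.62, while ADIPOQ was at 5.08 on both. Of 9 endothelial markers none was above on both, with means of 7.2 and 7.37 against 7.02 to 7.43. Of 5 blood markers 1 was, with means of 5.77 and 5.98 against 5.48 to 5.75. Of 12 ovarian carcinoma markers 1 was, with means of 8.83 and 9.40 against 8.62 to 8.91. That marker was KRT19, which is also 1 of the 3 breast epithelium markers above on both. By more than 1 on both arrays, only 1 fibroblast and stromal, 2 immune and 1 breast epithelium marker lay above the others. Of the fibril partners POSTN was higher than in starved Rab25 cells by 4.41 (SE 0.57) and LUM by 4.30 (SE 0.43). RAB25 was 8.18 and 8.66 on these arrays. The part of these markers in the collagen signals was not tested.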

How the data were processed

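For each probe set of 24 arrays of A2780 RNA the authors deposited a log2 value, and MAS5 and RMA are named per the submitters' processing notes, with no version, role or order. The 22930 probe sets included 524 controls; 19415 had 1 gene symbol, 125 several and 2866 none. The platform annotation gave the symbols, and positions came from RefSeq (GRCh38.p14). Background correction and normalization steps are therefore not known one by one, and the number of arrays limits the precision.

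Values were used as deposited and tested by lmFit and eBayes of limma 3.58.1 (R 4.3.3), with 9 groups and an experiment term on 22 arrays. The contrasts with FBS in Rab25 cells used 24 arrays, the starved experiments 8, and the responses by experiment a fit with treatment by experiment terms. P-values were Benjamini-Hochberg adjusted over 11940 genes at 0.05; other probe sets came from a fit over all probe sets. Errors are limma's SE or the SD of arrays. The experiment is a label of each array and pairs the groups: deviations by experiment correlated over genes in 36 pairs of groups at a median r of 0.70 (0.09 to 0.86, 1 below 0.1).

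All 9 genes were described, with up to 4 called members of lowest p of each list and the 2 genes of highest r. Lists covered other collagens, chain modification, processing and crosslinking, basement membrane and fibril partners, receptors, cleaving enzymes, TGF beta responders and cell markers. The members and lists were chosen with earlier results of these data known. On simulated data of 11940 genes, a true log2 change of 1 was recovered for 100% of genes between the lines, 98.5% for TGF beta and 77.6% for its difference between experiments. The lowest share was 49.3%, for the difference between experiments with FBS in pcDNA cells. False calls made up 1.36% to 8.82% of calls, the most with IGF. Alternatives were other scalings, priors, weights, probe set summaries, a filter, group and experiment subsets, no experiment term, and each array left out.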

Additional observations from a re-analysis of the deposited data

Results flagged for a closer look

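COL3A1 in starved pcDNA replicate 1-1, at 6.60, lay farther from the other 3 arrays of its group than Dixon's 95% limit for 4 samples allows. It was the only one of 18 sets of gene and group to do so, and chance gives about 1 in 20.

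The response to FBS differed between the lines, tested as an interaction, by 6.91 for COL3A1 and 4.65 for COL1A2 on the log2 scale, higher in Rab25 cells. It rests on the 2 Rab25 FBS arrays, on which LUM, CD74 and SCGB2A2 were also above all other arrays. Of their lists, 2 of 13 fibroblast and stromal, 7 of 13 immune and 3 of 14 breast epithelium markers were above on both. By more than 1 on both arrays the counts were 1, 2 and 1. The part of these markers was not tested.

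Responses differed between the experiments (experiment 2 minus experiment 1) by -0.76 for COL4A2 with TGF beta, 0.60 for COL4A1 with IGF, and, with FBS in pcDNA cells, -1.02 for COL4A1, -0.97 for COL4A2, -0.95 for COL5A2 and -1.56 for COL6A3. The starved levels of COL4A1, COL4A2, COL5A2 and COL6A3 were higher in experiment 2 by 0.64, 0.73, 0.48 and 0.66.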

How the results depend on the processing

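Of the results for single genes under all alternatives, 4259 kept their side of the threshold (132 of them changed sign without passing on either side), 44 lost their call, 100 gained one and 2 changed sign with a call on at least 1 side: COL3A1 between the lines with FBS included (1.26, against -0.07) and COL6A1 between the lines with the median of its probe sets (0.0060, against -0.25). The cause was not tested where the alternative's own construction does not show it. Counts below are of the 9 collagens passing.

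Between the lines the count was 3. Under the alternatives it was 2 to 5, with 5 for experiment 2 alone or with FBS included on 24 arrays (3 to 4 with arrays left out in turn). In starved cells it was 1, and 2 with quantile normalization, centring on array medians, array weights, the median of the probe sets, without the lowest 40% of genes or with the groups compared alone, and 3 with experiment 2 alone (1 to 2 leaving out arrays). With IGF it was 0, and 3 with experiment 1 alone. With TGF beta over both lines it was 3, and 2 to 4 under the alternatives (3 to 4 leaving out arrays). With TGF beta in pcDNA cells it was 2, and 1 on all 24 arrays (0 to 3 leaving out arrays); in Rab25 cells it was 1, 4 with experiment 1 alone and 2 with experiment 2 alone (0 to 2). With FBS it was 0 in pcDNA cells, 1 with quantile normalization, 2 without the lowest genes and 5 with experiment 1 alone (0 to 5), and in Rab25 cells 5, 3 with array weights or without the lowest genes and 8 with experiment 1 alone (4 to 7). The difference between the lines with FBS gave 2, 0 without the lowest genes, which removes COL1A2 and COL3A1 from the test, and 4 with either experiment alone (2 to 6). The differences between the experiments gave 1 with TGF beta, 2 with a trend and robust prior or the median of the probe sets (0 to 1), and 1 with IGF, 2 with that prior or without the lowest genes (0 to 1); with FBS in pcDNA cells 4 (3 to 5), and between starved experiments 5 (5 to 7, with COL5A1 at -0.28 passing without Rab25 starved replicate 2-2). COL5A2 passed between the lines when pcDNA starved replicate 1-1, either pcDNA FBS array or the pcDNA IGF array of experiment 1 was left out. In TGF beta by line, COL4A2 passed in both lines without either pcDNA FBS array, and in Rab25 cells COL5A1 did without either pcDNA TGF beta array or Rab25 starved replicate 2-2. Without the Rab25 FBS array of experiment 2, COL4A1 and COL5A2 passed with FBS in Rab25 cells.

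Without the experiment term, that is with no replicate block, the counts were 1 for TGF beta in pcDNA cells and 0 in Rab25 cells, where COL4A1 had an adjusted p of 0.509 and 0.223, COL4A2 with TGF beta over both lines kept 1.09 (adjusted p = 0.201) and COL6A1 between the lines -0.25 (adjusted p = 0.436), while COL5A1 between the lines stayed at -2.62 (adjusted p = 1.10e-09). COL5A1 between the lines and COL4A1 with TGF beta over both lines passed under every alternative tried, at -2.77 to -1.72 and 1.28 to 1.84.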
